A study of Schmidtea mediterranea with 15 samples.

Results

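The planarian opsin record AF112361.1 was followed through regeneration of trunk fragments in the flatworm Schmidtea mediterranea. It is 1 of 92053 sequence records in the deposited count table, and it was picked with its counts and CPM in all 15 libraries already known. Every level and fold change of it below is therefore a description, and no p-value is given for it. The table lists the record by its identifier only; its reading as the opsin comes from that identifier, and no sequence was compared here.

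Opsins are light-sensing G protein-coupled receptors that bind a retinal chromophore. In planarians opsin is made by the photoreceptor neurons of the eyes, whose rhabdomeres lie in a cup of pigment cells and whose axons run to the brain. The eyes sit in the head, so a trunk piece has none until stem cell progeny build new ones, and opsin RNA is widely used as a mark of differentiated photoreceptors.

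The libraries were made from poly(A) RNA of animals of the biotype Sexual S2F2, the sexually reproducing strain, in 5 groups of 3. Trunk fragments were sampled at day 0, regenerating trunk fragments at days 3, 5 and 7, and whole juvenile animals were sampled intact. Library totals and depth here mean the reads counted on all records, since the number of reads sequenced was not used. The shallowest library, day 0 replicate 1, held 20338464 reads and the deepest, day 5 replicate 1, held 59034917. Trunk libraries of days 3, 5 and 7 held 36859187 reads or more, the other day 0 libraries 34526592 and 34569921 reads, and juvenile libraries between 25735815 and 37791352 reads. The labels give neither the planes of amputation, nor the number of animals in a library, nor whether replicates were separate animals, so the spread between replicates may be technical in part. Between juveniles and trunk fragments, the body part and the stage of the animal cannot be told apart. Records of other photoreceptor or pigment cup genes could not be matched by name, so the label of the record was not checked against other eye markers. On the first principal component of log2 CPM, which held 66.6% of the variance, day 0 replicate 3 and day 3 replicate 3 lay apart from their groups. At day 7 replicates 1, 2 and 3 were all spread, at 51.5, 123 and 1.34, and replicate 2 was taken as the one apart. No cut-off was set for this choice. Values without these 3 libraries that lay apart are given beside the levels. Leaving them out removes the highest day 0, the lowest day 3 and the lowest day 7 opsin level, which enlarges the rise over day 0. Replicate 3 lay lowest on the first component in every group, and by that rule day 7 replicate 3 would have been the one left out. The day 7 opsin mean was 0.363 CPM without replicate 3 and 0.554 CPM without replicate 2.

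The opsin record was at or near the limit of detection in trunks at days 0 and 3, was counted in every library of days 5 and 7, and was highest in juveniles. At day 0 the libraries held 0, 1 and 2 reads of it, and at day 3 they held 3, 2 and 0. At day 5 they held 16, 9 and 8 reads, at day 7 they held 21, 13 and 34, and in juveniles 44, 63 and 41. Days 0 and 3 overlapped completely, and no library of day 5 or later had as few reads as any library of day 0 or day 3. The juvenile libraries had the most reads of the record, although their totals of counted reads were below those of all libraries of days 5 and 7 except day 5 replicate 2.

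Scaled to library size, as CPM (reads of the record scaled to a fixed library size for all libraries, with sizes adjusted by the trimmed mean of M-values), the level was 0.0323 ± 0.0325 CPM at day 0 and 0.0374 ± 0.0325 CPM at day 3 (SD, n = 3 each). At day 5 it was 0.231 ± 0.0565 CPM, at day 7 it was 0.463 ± 0.187 CPM, and juveniles had 1.47 ± 0.132 CPM (SD, n = 3 each). The order of the means was thus day 0, day 3, day 5, day 7 and juvenile, and it was the same without the 3 libraries that lay apart, with 0.0163, 0.0567, 0.234, 0.554 and 1.48 CPM. The neighbours day 3 and day 0 did not differ beyond their spread, and single libraries set their order. The day 3 mean was the lower one, at 0.0376 CPM against 0.0489 CPM at day 0, when day 0 replicate 1 was left out. It was also the lower one without day 3 replicate 1 (0.0273 CPM, against 0.0318 CPM at day 0) and without day 3 replicate 2 (0.0297 CPM, against 0.0317 CPM at day 0). In bulk RNA, fewer photoreceptors and less opsin RNA in each of them cannot be told apart.

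**Figure D1:**
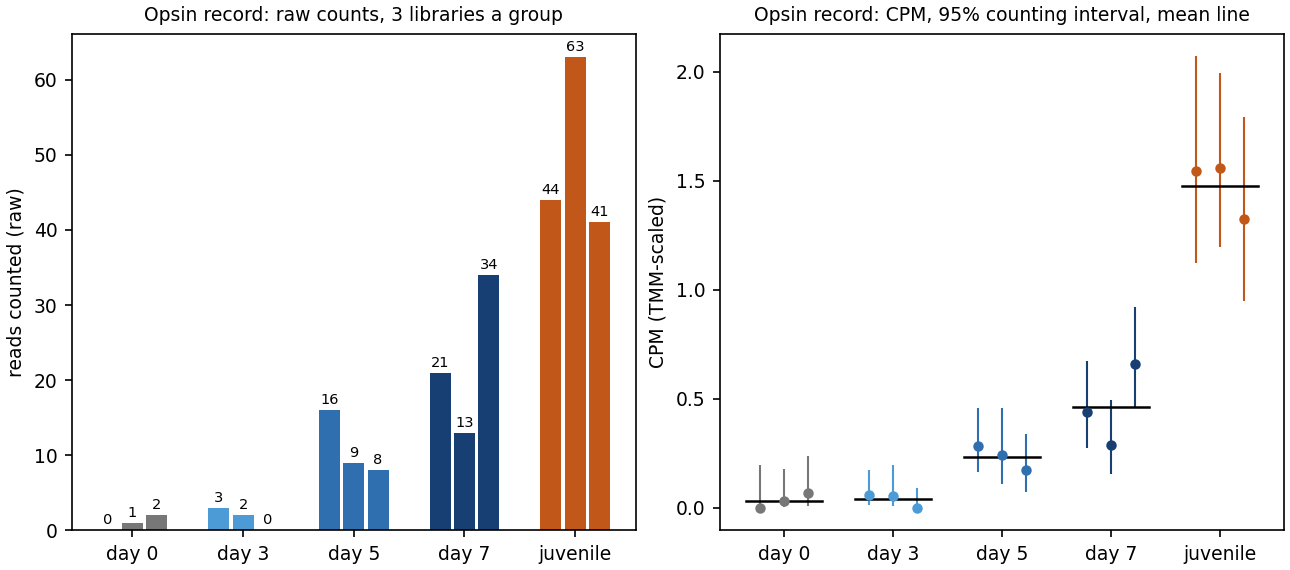
Raw read counts (left, bars with the count above each) and TMM-scaled CPM (right, points with exact 95% Poisson intervals, which cover counting error only, and a line at the group mean) of the opsin record in the 3 libraries of each group, replicates 1 to 3 from left to right. Days 0 and 3 hold 0 to 3 reads a library, days 5 and 7 hold 8 to 34, and juveniles hold 41 to 63.

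Day 3 fragments were set against day 0 fragments to see whether opsin RNA appears early. At day 3 the record had 0.0584, 0.0539 and 0 CPM in replicates 1, 2 and 3, against 0, 0.032 and 0.065 CPM at day 0. The ranges overlap, and each group has 1 library with no read. The log2 fold change of day 3 over day 0 was 0.05 with an SE of 1, from an edgeR quasi-likelihood fit of all records, and 44.6% of the 46736 records tested had a log2 fold change at least as high. It changed sign when 1 library was left out: leaving out day 0 replicate 1 gave -0.32, day 0 replicate 2 gave -0.06, day 3 replicate 1 gave -0.47 and day 3 replicate 2 gave -0.16. It stayed positive when a replicate 3 was left out, at 0.85 for that of day 0 and 0.57 for that of day 3. With all 3 libraries that lay apart left out, it was 1.36. The share of 44.6% rests on 20851 records, and that number became 11621 when day 0 replicate 1 was left out, 3122 for day 0 replicate 3, 7802 for day 3 replicate 1 and 5695 for day 3 replicate 3.

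The depth sets what these 2 groups can show. The 5 reads of day 3 stand for a pooled 0.0384 CPM (exact 95% Poisson interval 0.0125 to 0.0896), and the 3 reads of day 0 for 0.0371 CPM (0.00765 to 0.108). Both intervals, like all counting intervals here, cover counting error only. The ratio of day 3 to day 0 over the pooled reads was 1.04, with an exact interval of 0.201 to 6.67, so a change of several fold in either direction was not detectable at this depth. In the libraries with no read, the limit of 3 counts stands for 0.0719 CPM in day 3 replicate 3 and 0.159 CPM in day 0 replicate 1, the shallowest library. The exact 95% intervals of these 2 libraries reach further, to 0.0884 and 0.195 CPM. At the juvenile level, day 3 would have given 193 reads over its 3 libraries and day 0 would have given 119.7. The 5 and 3 reads counted lie far below these numbers, so depth does not limit the statement that both groups were below juveniles.

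**Figure D2:**
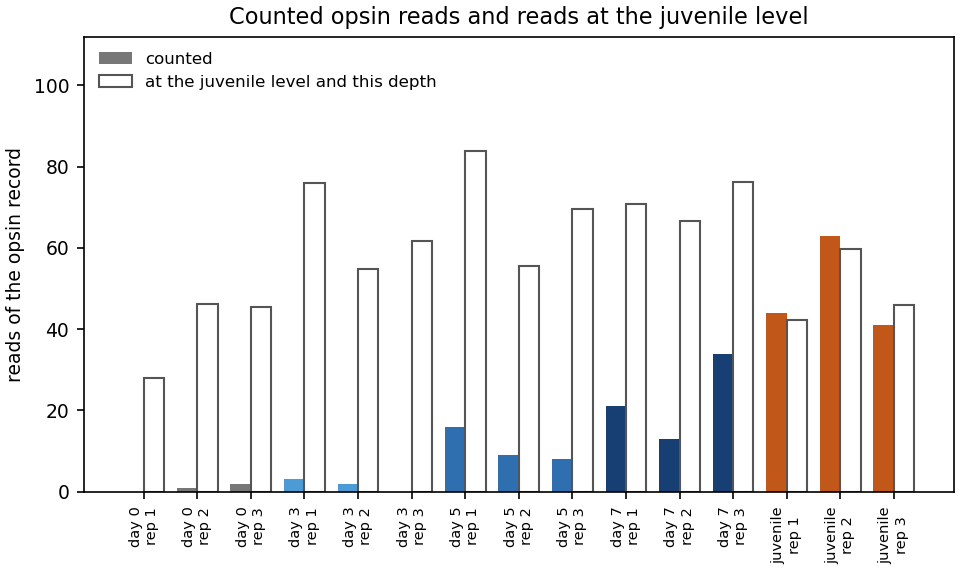
Reads of the opsin record counted in each library (filled bars) beside the number that the pooled juvenile CPM would give at that library's scaled depth (open bars). Trunk libraries of days 0 and 3 would have held 28.0 to 76.0 reads at the juvenile level and held 0 to 3.

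Day 5 was the first sampled time at which the record stood clear of its day 0 level. Its libraries had 0.282, 0.240 and 0.170 CPM at day 5, against 0.0584, 0.0539 and 0 CPM at day 3. All 3 day 5 libraries were above all 3 day 3 libraries, and the lowest of them was also above the highest day 0 library, at 0.065 CPM. Over all 46736 records, 6.10% were higher without overlap at day 5 than at day 3 and 12.2% were higher without overlap at day 5 than at day 0. The log2 fold change of day 5 over day 3 was 2.51 (SE 0.6), or 5.69-fold, and that of day 5 over day 0 was 2.56 (SE 0.7), or 5.88-fold. From the pooled reads, 33 at day 5 and 5 at day 3, the ratio was 6.09 with a counting interval of 2.36 to 20.0. Against the 3 reads of day 0 it was 6.30, with an interval of 1.98 to 32.1. Without day 3 replicate 3 the log2 fold change of day 5 over day 3 was 1.98, and with day 3 replicate 1 left out it was 3.06.

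Few of the records that passed the filter had as large a fold change in this step. Of all records tested, 22 (0.0471%) had a log2 fold change of day 5 over day 3 at or above that of the opsin record, itself included. Leaving out day 5 replicate 1 made this number 35, and leaving out day 3 replicate 3, the day 3 library with no opsin read, made it 126. It was 97 without the 3 libraries that lay apart and 678 when records with very few counts were kept. The opsin record itself passed the filter through its day 7 and juvenile reads, and did not pass it in a fit of days 3 and 5 alone. The rank therefore describes the fit and is no test.

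At day 7 the mean was above that of day 5, and the libraries of day 7 were more spread. They had 0.439, 0.289 and 0.660 CPM at day 7, against 0.282, 0.240 and 0.170 CPM at day 5. The groups did not overlap, but the gap was narrow: day 7 replicate 2, at 0.289 CPM, lay just above day 5 replicate 1, at 0.282 CPM. Of all records, 11.3% were higher without overlap at day 7 than at day 5. The log2 fold change of day 7 over day 5 was 0.996 (SE 0.37), a ratio of 1.99, and it was 0.64 without day 7 replicate 3 and 1.23 when day 7 replicate 2 was left out. The pooled reads, 68 at day 7 and 33 at day 5, gave a ratio of 2.02 with a counting interval of 1.31 to 3.15, which leaves out the spread between replicates. Records with a log2 fold change at least as high numbered 304 (0.650%). This number changed when 1 library was left out and the records were filtered anew. Leaving out day 5 replicate 2 gave 568, day 5 replicate 3 gave 1414, day 7 replicate 2 gave 164 and day 7 replicate 3 gave 2141. Leaving out day 0 replicate 1, which is in neither group, gave 448. With records of very few counts kept, the number was 5339. The number of records tested was not held fixed in these fits, so such counts are not shares of the 46736 records.

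The steps were also taken as differences of CPM. The day 5 mean was 0.193 CPM (SE 0.0377) above that of day 3, and the day 7 mean was 0.232 CPM (SE 0.113) above that of day 5, or 0.0967 and 0.116 CPM per day. The second of these rests on single libraries, since the day 7 mean was 0.363 CPM without day 7 replicate 3 and 0.554 CPM without day 7 replicate 2. The day 3 mean was 0.00508 CPM (SE 0.0265) above that of day 0. Fold changes, unlike these differences, divide by levels that rest on few reads.

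Day 7 was set against day 0 and day 3 as the whole course. Its log2 fold change was 3.55 over day 0 (SE 0.62), or 11.7-fold, and 3.50 over day 3 (SE 0.53), or 11.3-fold. Over day 0 it was 4.35 without day 0 replicate 3 and 4.58 without the 3 libraries that lay apart. From the pooled reads the ratio of day 7 to day 0 was 12.7, with a counting interval of 4.17 to 63.1, and that of day 7 to day 3 was 12.3, with an interval of 5.01 to 39.0. All day 7 libraries were above all libraries of day 0 and of day 3, as were 17.6% and 9.05% of all records.

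**Figure D3:**
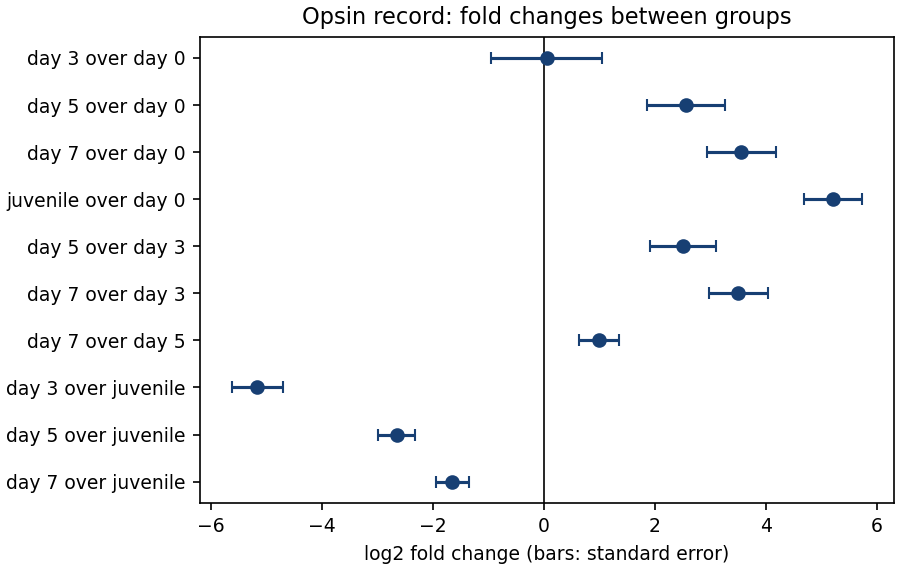
Log2 fold changes of the opsin record in 10 comparisons, first group over second, from the edgeR fit of all 15 libraries. Bars are approximate standard errors, computed from each fold change and its F statistic. The value for day 3 over day 0 is 0.05 with an SE of 1; day 5 and day 7 are above day 0 and day 3 and below juveniles.

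Juveniles had 1.54, 1.56 and 1.32 CPM, against 0, 0.032 and 0.065 CPM in day 0 trunks. Every juvenile library was above every day 0 library, as for 20.1% of all records. Juveniles over day 0 had a log2 fold change of 5.20 (SE 0.53), or 36.9-fold, and the pooled reads, 148 in juveniles and 3 at day 0, gave a ratio of 39.9 with a counting interval of 13.4 to 196. Only 15 of the 46736 records (0.0321%) had a log2 fold change of juveniles over day 0 as high, the opsin record among them. Leaving out day 0 replicate 2 made it 30 and leaving out day 0 replicate 3 made it 26, and it was 24 without the 3 libraries that lay apart and 40 with records of very few counts kept. Day 0 replicate 3 held 2 of the 3 day 0 reads, and without it the log2 fold changes over day 0 were 3.36 at day 5 and 6.001 in juveniles. The difference joins the presence of a head with the smaller size and earlier stage of juveniles.

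Regenerating trunks had not reached the juvenile level by day 7. Day 7 libraries had 0.439, 0.289 and 0.660 CPM, against 1.54, 1.56 and 1.32 CPM in juveniles, and the highest of day 7 was below the lowest juvenile library. Over all records 13.7% were lower without overlap in this comparison. The log2 fold change of day 7 over juveniles was -1.65 (SE 0.3), a 3.14-fold lower level, and from the pooled reads juveniles were 3.14-fold above day 7 with a counting interval of 2.34 to 4.25. The corresponding log2 fold changes were -2.65 (SE 0.33) for day 5 over juveniles and -5.16 (SE 0.46) for day 3 over juveniles, and in both the groups did not overlap, as for 17.9% and 16.3% of all records. At day 7, 80 records (0.171%) were at least as far below juveniles, a number that became 121 when day 3 replicate 2 was left out, 122 for day 5 replicate 2, 153 for day 7 replicate 1, 243 for day 7 replicate 2 and 121 for juvenile replicate 2. Among these 5 libraries, only those of day 7 and juveniles belong to the groups compared. With records of very few counts kept, the number was 2381.

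As a percentage of the juvenile mean, the opsin record stood at 2.19%, 2.54%, 15.7% and 31.4% on days 0, 3, 5 and 7. These values were set beside other records with a higher level in juveniles than in day 0 trunks. There were 100 records, the opsin record among them, whose juvenile level was 4-fold or more above day 0, at an edgeR adjusted p under 0.05. The set is defined by this ratio and not by abundance: the median level of the other 99 was 0.516 to 0.561 CPM in the juvenile libraries. The other 99 had medians of 15.5%, 30.1%, 46.9% and 54.3% of their juvenile level on these days. The set grew whichever library was left out, also for libraries of groups other than day 0 and juveniles. Each of these fits filtered the records anew, with a filter set by the smallest group. With 1 library left out the sets held 131 to 277 other records. Their medians were 33.3% to 56.6% on day 3, 41.2% to 57.8% on day 5 and 48.1% to 65.6% on day 7. The parts of the library and of the filter in these shifts were not told apart. The day 3 median moved most, to 56.6%, without day 0 replicate 2. The quartiles at day 7 were 34.0% and 77.1%, so the opsin record lay below the lower quartile, with 78 of the 99 records above it and 21 below. At day 3, 36 of the 99 records were already over 50% of their juvenile level.

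The place of the opsin record in this set depends on how large a difference defines it. Among the 35 other records with a difference of 8-fold or more, the medians were 4.96%, 7.14%, 19.5% and 32.8% of the juvenile level at days 0, 3, 5 and 7. Of these 35, 19 were above the opsin record at day 7 and 16 below, and at day 5 the numbers were 23 above and 12 below. The sets were chosen on the same libraries and hold records with low day 0 counts, so these places are a description without a test, and the difference between the opsin record and the others was not tested.

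**Figure D4:**
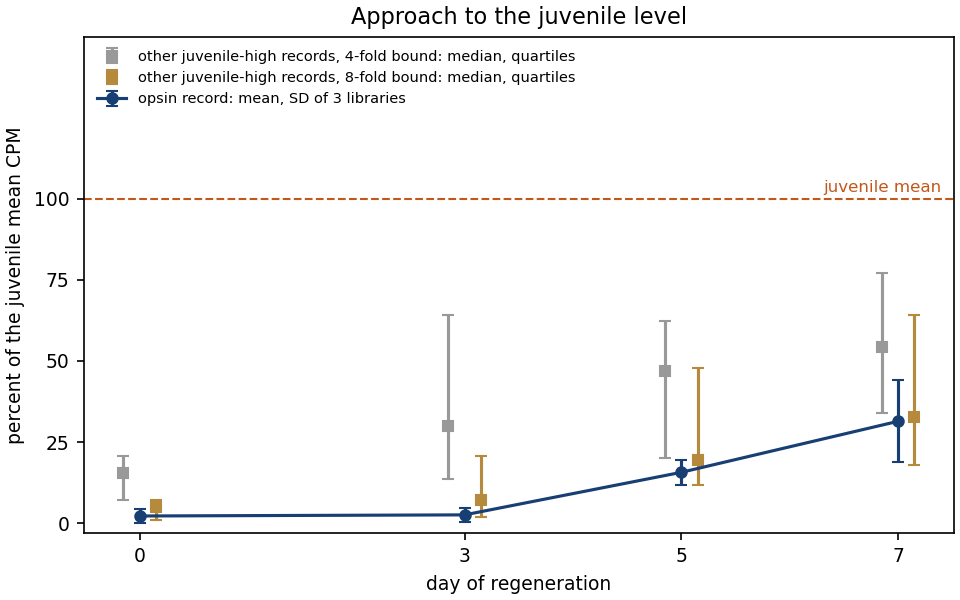
Mean CPM at each day as a percentage of the juvenile mean for the opsin record (circles with the SD of 3 libraries) and for other records with a higher level in juveniles than on day 0, at a 4-fold bound (99 records) and an 8-fold bound (35 records), as medians with quartiles. The opsin record goes 2.19%, 2.54%, 15.7% and 31.4% at days 0, 3, 5 and 7, under the median of the 4-fold set at each day and close to that of the 8-fold set at day 7.

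The full order of the opsin groups was uncommon. All day 5 libraries were above all libraries of days 0 and 3, all day 7 libraries above all of day 5, and all juvenile libraries above all of day 7. Of the 46736 records, 40 (0.0856%) had this order, of which 12 belonged to the 100 records defined at the 4-fold bound. Leaving out day 3 replicate 3 gave 61 such records, day 5 replicate 2 gave 63 and day 5 replicate 3 gave 61, and the fit without the 3 libraries that lay apart gave 91. The 39 other records were mostly nearer to juveniles: at day 5 they stood at 3.81% to 86.3% of the juvenile level, with a median of 64.1%, and at day 7 at 8.21% to 90.1%, with a median of 69.5%. In 5 of the 39 the day 7 percentage was below the 31.4% of the opsin record, and 7 of the 39 had a larger log2 fold change of juveniles over day 0. The order was written down after the opsin values had been seen, and no function is read from it.

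The spread between libraries was set beside that of counting alone, which at days 0 and 3, with 0 to 3 reads a library, could show little. The variance of the reads over that of pure counting was 0.684, 1.18 and 0.694 on days 0, 3 and 5, it was 3.59 on day 7, and it was 0.381 in juveniles. The coefficient of variation of CPM at day 7 was 40.3%, where counting alone gives about 21.0%, and in juveniles it was 8.95%, where counting gives about 14.2%. The highest day 7 library had 2.28 times the CPM of the lowest. Each of these ratios rests on 3 libraries.

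The day 7 libraries also differed in the overall position of their transcriptomes. Replicates 1, 2 and 3 lay at 51.5, 123 and 1.34 on the first principal component, on which juveniles lay at 156 to 174. Replicate 2, the library nearest to juveniles on this component, had the lowest opsin level, 62.5% of the day 7 mean, and replicate 3, the farthest, had the highest, at 143%. Replicate 1 was at 94.9%. The other 99 records of the 4-fold set had medians of 94.2%, 96.6% and 108% of their day 7 means in replicates 1, 2 and 3, and 31 of the 99 were lowest in replicate 2, against 43 in replicate 1 and 25 in replicate 3. The summed CPM of these 99 was 395, 415 and 400 in the 3 libraries. The part of the position of the library in the opsin level was not tested. Without replicate 2 the day 7 mean was 0.554 CPM and without replicate 3 it was 0.363 CPM, both between the day 5 and juvenile means.

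A second record of the same transcript was looked for by its counts. No record had every library's count within 10% of that of the opsin record. The closest by Bray-Curtis dissimilarity of raw counts (0 for identical counts) was GDAG01015906.1, at 0.127. It had no read on day 0, then 1, 2 and 0 reads on day 3 and 9, 3 and 8 on day 5. Day 7 gave 15, 19 and 39 reads, and juveniles 35, 73 and 52. Its day 7 and juvenile libraries did not overlap in CPM, with means of 0.498 ± 0.231 CPM at day 7 and 1.57 ± 0.304 CPM in juveniles (SD, n = 3 each). The sources used here do not say how the authors divided reads between near-identical records.

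The records nearest in shape were found by the root-mean-square difference of log2 CPM, after each record was centred on its own mean over the 15 libraries. The median distance of all records from the opsin record was 1.67 on the log2 scale, 27 records lay within 1 and 3 within 0.5. The nearest was GDAG01019277.1, at 0.363. It had 6, 16 and 15 reads on day 0 and 31, 22 and 19 on day 3. Day 5 gave 84, 53 and 66 reads, day 7 gave 118, 69 and 125, and juveniles 200, 289 and 210. Like the opsin record it had its lowest day 7 count in replicate 2, the shallowest day 7 library. The choice by likeness over these same libraries favours such a match. The record GDAG01019277.1 stood at 6.30%, 7.89%, 20.5% and 30.7% of its juvenile level on days 0, 3, 5 and 7. Its own levels on days 0 and 3 rest on more reads, at 0.439 ± 0.106 CPM and 0.550 ± 0.0825 CPM (SD, n = 3 each). They set no bound on the opsin record on those days.

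The second nearest was GDAG01052848.1, at 0.385, with 0 reads in each day 0 library and 2, 0 and 0 at day 3. It had 6, 6 and 4 reads at day 5, 11, 7 and 18 at day 7 and 24, 27 and 17 in juveniles, and stood at 17.1% of its juvenile level at day 5 and 35.7% at day 7. All 3 of these records are in the set defined at the 4-fold bound. No gene name is paired with these identifiers in the table, and the libraries share groups and depth, so the likeness is one of profile alone. The number of records within 0.5 rests on how low counts are damped: it was 0 with a prior count of 0.5, 7 with a prior count of 5 and 10 when group means replaced libraries.

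**Figure D5:**
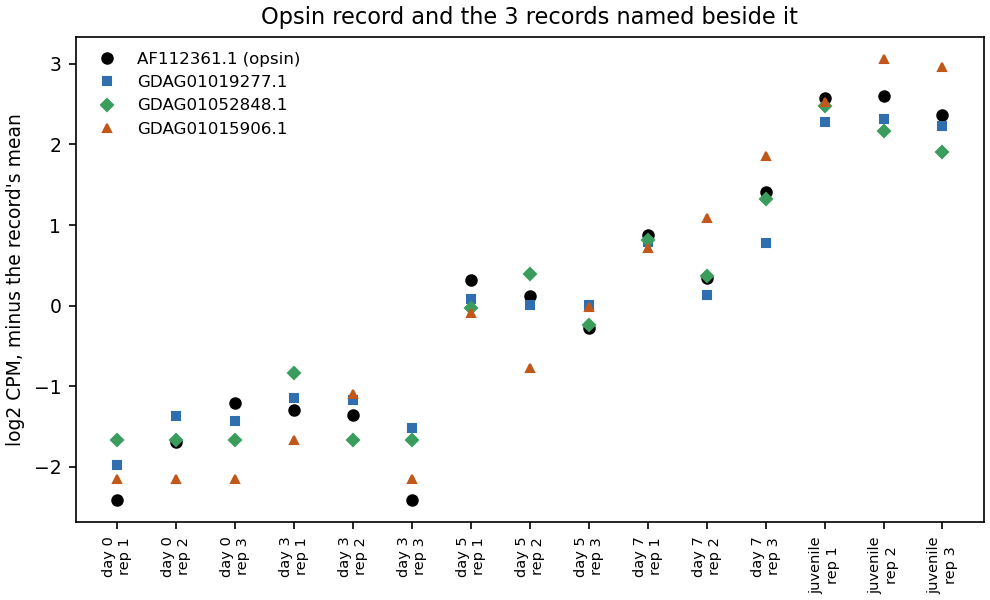
Log2 CPM (prior count 2) minus each record's own mean in the 15 libraries, for the opsin record (black circles) and the 3 records named beside it. In each record the day 5 libraries lie above those of days 0 and 3, and the juvenile libraries lie at the top; the lowest day 0 and day 3 points are libraries with 0 reads, whose place is set by the prior count, except in GDAG01019277.1, which has reads in every library.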

How the data were processed

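The deposited file is a table of raw read counts, 1 row for each sequence record and 1 column for each of 15 libraries, as judged from the values. The RNA was a TRIzol extract and the library kit was TruSeq, per the labels' protocols. Bowtie2 is named in the submitters' processing notes; the sources used here give no version of it, no counting tool, no filter and no name of the sequence set. Record lengths were not used, so levels are not compared between records.

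Of the records, filterByExpr (minimum count 10, minimum total 15, 5 groups) kept 46736 of 92053. The opsin record passed through its reads at day 7 and in juveniles. Library sizes were scaled with TMM factors (trimmed mean of M-values). Fold changes came from 1 robust quasi-likelihood fit, which held all 15 libraries and no term but the group. It used edgeR 4.0.16, limma 3.58.1 and R 4.3.3 and had 10 residual degrees of freedom. The SE of a log2 fold change was computed as its absolute value over the square root of its F statistic. It is approximate at low counts, where the counting intervals are not symmetric. The pipeline was tested on simulated data. Where a set of records was defined by a call, edgeR p-values were Benjamini-Hochberg adjusted over all records. Counting intervals are exact Poisson or conditional binomial intervals at 95%, and the limit for a count of 0 is 3 counts. Distances in shape used a prior count of 2. Reads from PCR without molecular identifiers are not independent molecules, so intervals and limits cover counting error only. Library totals bound the precision: 3 counts are worth 0.0529 CPM in the deepest library and 0.159 CPM in the shallowest.

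Groups and replicate numbers were taken from sample titles. The records named were the opsin record, the 2 nearest in shape among those with at least 0.1 of its mean CPM (which all tested records had), and the nearest by raw counts. A list of eye, head and trunk markers could not be matched to the identifiers and was not tested. The opsin record, sets and lists were chosen with earlier results of these data known. Alternatives were other scalings, no filter, DESeq2 1.42.0, a replicate block, fits of the compared groups only, other priors and bounds, and leaving out libraries. Fits with libraries left out filtered the records anew, with the number of libraries asked for set by the smallest group.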

Additional observations from a re-analysis of the deposited data

How the results depend on the processing

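The opsin fold changes had a wide spread between replicates at low counts, of 1.95 log2 units for day 3 over day 0. Against so wide a spread few values could move, so the number of moved fold changes is no measure of stability. Of 217 alternative fold changes 0 moved by more than the spread between replicates, and 213 kept their sign. The other 4, between -0.47 and -0.06, were those of day 3 over day 0 without replicate 1 or 2 of either day. Without the 3 libraries that lay apart, the log2 fold changes over day 0 were 1.36 at day 3, 3.35 at day 5, 4.58 at day 7 and 5.99 in juveniles, and the day 0 mean was 0.0163 CPM. Of 90 alternative mean levels, 1 moved: the juvenile mean was 1.63 CPM with total-count CPM. Fits of only the compared groups gave no value for day 3 over day 0, day 5 over day 0 and day 5 over day 3, where the record did not pass the filter. After group means were removed, correlations between same-numbered libraries ran from -0.07 to 0.58. All 3 of them passed 0.1 in 1 of 10 comparisons, day 3 with day 0. The highest were those of replicate 3 among days 0, 3 and 7, at 0.475 to 0.579. On the first principal component replicate 3 lay lowest in every group. Its scores were -178, -95.3, -68.1 and 1.34 on days 0, 3, 5 and 7, and 156 in juveniles. The cause of this shared shift was not tested. Libraries of different number were not correlated, so whether the replicate numbers pair the libraries could not be decided. With the replicate block the log2 fold changes were 0.03 for day 3 over day 0, 2.51 for day 5 over day 3, 1.001 for day 7 over day 5, 5.20 for juveniles over day 0 and -1.66 for day 7 over juveniles.

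Counts of records as far out as the opsin record changed with the filter. They also changed when single libraries were left out, where the records were filtered anew. For day 3 over day 0, records at least as low were counted where the fold change was negative. The number of records tested was not held fixed, so these counts are not shares of the 46736 records. In the order day 3 over day 0, day 5 over day 3, day 7 over day 5, juveniles over day 0 and day 7 over juveniles, they were 43166, 678, 5339, 40 and 2381 without the low-count filter and 808, 97, 162, 24 and 230 without the 3 libraries that lay apart. Leaving out 1 library gave 3122 to 22815, 20 to 126, 164 to 2141, 16 to 30 and 101 to 243. Records with the opsin order of groups numbered 36 to 63 in this way and 91 without the 3 libraries. Records within 0.5 in shape numbered 0, 7 and 10 with a prior count of 0.5, a prior count of 5 and group means.

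Medians of the other juvenile-high records at days 0, 3, 5 and 7 were 11.4%, 50.6%, 52.6% and 57.6% of the juvenile level without the filter, 4.96%, 7.14%, 19.5% and 32.8% at an 8-fold bound, and 40.5%, 60.0%, 61.3% and 68.7% at a 2-fold bound. Without the 3 libraries they were 49.6%, 53.5% and 59.7% at days 3, 5 and 7. Leaving out 1 library gave 33.3% to 56.6% on day 3, 41.2% to 57.8% on day 5 and 48.1% to 65.6% on day 7, with sets of 131 to 277 records. The causes of these shifts were not tested. At 0 to 3 reads a library, days 0 and 3 set no useful bound on a change between them.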
